A study of Mus musculus with 157 samples.

Results

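The mouse Zfp genes carry zinc finger domains and most are named by number only. Of 338 protein-coding genes of the deposited table whose symbol was Zfp followed by a number, 149 reached at least 1200 counts summed over gradient fractions 4 to 16 of all samples, and these 149 are described here. Zfp36, Zfp36l1, Zfp36l2 and Zfp365, 4 genes with such symbols that are not of this family, had been left out, and the other 189 Zfp genes lay under the minimum. The members were chosen by their counts summed over all samples, so their level is no finding. The lowest inside were Zfp780b with 1216 counts and Zfp772 with 1202, and the next outside was Zfp26 with 1195. Zfp207 was the most abundant with 73603 counts, the median member had 2697, and together the members held 0.472% of all counts.

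Most of these proteins hold arrays of C2H2 fingers, small folds around a zinc ion that each read a few bases of DNA and are joined by short linkers. A large subfamily also carries a KRAB box, which recruits TRIM28 (KAP1), and through it the methyltransferase SETDB1 and HP1 proteins, to silence transposable elements and imprinted loci. Other members act outside this pathway, in transcription activation, splicing, ribosome maturation or protein modification. In GENCODE proteins of the GRCm38 build, a KRAB box was called in 62 members and not in 87. The call needed at least 17 of 36 residues to match a consensus, so a divergent box, or one absent from the annotated protein, would be missed. The highest score among the 87 was 13, in Zfp746. Members said below to have no KRAB box are those in which none was called. The KRAB members had a median of 11 fingers (range 2 to 23) and the others a median of 7 (up to 37). No finger pattern was found in 4 members, Zfp259, Zfp703, Zfp330 and Zfp839.

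The cells were splenic B cells of C57BL/6Babr mice, cultured with lipopolysaccharide (LPS), which makes B cells proliferate and secrete antibody. The LPS group had 48 h of LPS at 10 µg/ml. The LPS+ET group had etoposide, a topoisomerase II inhibitor that leaves DNA double-strand breaks, at 20 µM for 4 h. The study's methods add etoposide after 48 h of LPS, whereas 1 of its figure legends places it in the last 4 h. Whether the groups differ in total culture time is therefore not certain. The LPS+ET+KU group had in addition KU55933, an inhibitor of the damage kinase ATM, at 10 µM from 1 h before etoposide, after 47 h of LPS. All groups had cycloheximide at 100 µg/ml for 3 min, and cytoplasmic extracts were run on sucrose gradients. Each treatment had 4 gradients, named here by treatment and by a tag of the column headers (LUL15 to LUL18), and each gradient gave 13 fractions. The tag is called the library pool here, but the labels and headers do not say what it stands for. Fractions 4 to 7 hold monosomes, 8 to 10 light polysomes and 11 to 16 heavy polysomes. The labels do not say which gradients came from separate mice, so p-values measure the spread between these gradients.

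Counts came from 3′ ends of mRNAs, one tag for each molecule, in the GRCm38 (mm10) build. The site with most counts lay within 100 bases of the annotated transcript end in 108 members. It lay in exon sequence outside the coding part in 113 members, outside the gene's annotated transcripts in 30, in an intron in 5 (Zfp91, Zfp64, Zfp148, Zfp280d and Zfp367) and in a coding exon in 1. Of the sites outside, those of Zfp146, Zfp869, Zfp84, Zfp324 and Zfp790 lay 781 to 1611 bases from the nearest annotated end. The rest of the sites outside lay within 15 bases of an annotated end of the gene. Of the intron sites, those of Zfp91 and Zfp64 lay 5 and 1 bases from an annotated end. A linker with the residues TGEKP or TGQKP was present in 94 members (55 with a KRAB box and 39 without). The 27 bases around 1 linker, from the last histidine of a finger to the next cysteine, are printed for some members named below, with the codons of the linker and the aromatic residue after it in capitals. They were read 5′ to 3′ on the coding strand from the GENCODE transcripts.
Zfp874a (KRAB, chr13:67442979-67443005, minus strand): catACTGGAGAGAAACCATACaaatgt
Zfp456 (KRAB, chr13:67366506-67366532, minus strand): catACTGGAGAGAAACCATACacttgt
Zfp958 (KRAB, chr8:4628601-4628627, plus strand): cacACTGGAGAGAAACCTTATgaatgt
Zfp809 (KRAB, chr9:22239079-22239105, plus strand): catACGGGCGAGAAACCATATgaatgt
Zfp597 (KRAB, chr16:3866252-3866278, minus strand): cacACTGGTGAGAAGCCTTACaagtgt
Zfp143 (no KRAB, chr7:110081821-110081847, plus strand): catACTGGAGAAAAGCCATATcggtgt
Zfp142 (no KRAB, chr1:74569721-74569747, minus strand): cacACTGGGGAAAAGCCTTACcactgt

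Over the 87 members with such a stretch, 81 different stretches were found, at most 3 members shared 1, and a stretch differed at a median of 5 of its 27 bases from the most common base at each position. The last 50 bases before the counted site, which a 3′ tag reads, were compared with all other annotated transcripts for the 105 members whose site lay at a transcript end. In 1 of them, Zfp708, they were shared with another gene (Gm28557), so its counts are uncertain. The other members were not checked, among them Zfp456, Zfp429, Zfp958, Zfp777 and Zfp287, which are called below. Zfp456 and Zfp429 have the same linker stretch, and whether their tags can be told apart was not tested. The sites of Zfp593, Zfp142, Zfp219, Zfp513 and Zfp646 also lay in an exon of a gene on the opposite strand.

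Library totals ran from 14724 to 4170688 counts (median 811932), and gradient totals from 6404957 to 21449781. The smallest gradient, LPS+ET LUL16, stood apart, with 30.4% of its counts in heavy polysomes against 60.5 to 68.2% in the other LPS+ET gradients. Equal amounts of RNA were sequenced from each fraction, so totals do not measure mRNA along the gradient. The damage reporter Cdkn1a (p21), a p53 target, ran from 24.3 to 35.1 CPM (counts scaled by library size) in LPS, from 502 to 929 after etoposide and from 391.8 to 856 with the inhibitor. Mdm2, another p53 target, ran from 71.5 to 81.8, 309 to 467 and 128 to 256 CPM. The 8 B cell markers summed to 6762 to 10837 CPM in every gradient. The 5 T cell markers in the table summed to at most 3.00 CPM, and the 6 myeloid markers to 33.6 to 94.3 CPM in LPS, 45.5 to 157 after etoposide and 29.1 to 121 with the inhibitor. The part of those cells in the results was not tested.

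The first comparison asked which Zfp mRNAs changed on ribosomes when DNA breaks were induced, in counts summed over fractions 4 to 16. Such counts can change with total mRNA as well as with ribosome association, and total mRNA was not considered here. The study measured it by mRNAseq, and most genes it reports as changed on ribosomes also changed in total abundance. After etoposide, 14 members rose and 7 fell, led by a 16.2-fold rise of Zfp385a, and 9 of the 14 risers carried a KRAB box whereas none of the 7 that fell did. The test was edgeR's quasi-likelihood test over 12755 genes, and a gene was called when its p, adjusted by Benjamini and Hochberg's method, was under 0.01. The 21 members called were 14.1% of 149, near the 12.7% called of all genes tested, and the 14 risers stood against 7.88% of all genes called higher. The members' median log2 fold change was 0.19 and that of all genes 0.03, and without the filter on low counts these medians were 0.16 and 0.10. With the library pool as a block, 41 members passed (31 higher) and 26.7% of all genes. The count without the block was 12 when the LPS LUL15 gradient was left out and 13 without LPS LUL16, LPS LUL18, LPS+ET LUL15 or LPS+ET LUL18. With every fraction weighted equally, 13 members were called and all 13 were higher. That setting scales each fraction by its own total only. Its share and direction over all genes are not given here, so the direction is not read as particular to the members.

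Zfp385a (chr15:103313894-103340085), an RNA-binding zinc finger protein known as a p53 target, had 29.3, 33.4, 21.1 and 25.8 CPM in the LPS gradients (LUL15 to LUL18). In LPS+ET it had 557, 256, 407 and 563 CPM. The groups were far apart, with the LPS+ET LUL16 gradient the lowest of its group, and the log2 fold change was 4.02 ± 0.35 (SE; edgeR adjusted p = 5.8e-06). Zfp703 (chr8:26977335-26981460), a corepressor of the NET family, had 11.6, 11.6, 11.2 and 11.7 CPM in LPS and 87.5, 105, 72.4 and 80.2 in LPS+ET. It rose 7.46-fold (log2 2.90 ± 0.18, edgeR adjusted p = 5.1e-07), with LPS gradients that differed by less than 1 CPM from each other.

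The other 3 members with the largest rises were KRAB proteins. Zfp874a (chr13:67424548-67451623) had 3.45, 2.90, 5.21 and 3.40 CPM in LPS and 21.1, 21.3, 28.2 and 26.3 in LPS+ET, a 6.54-fold rise (log2 2.71 ± 0.27, edgeR adjusted p = 1.7e-05). Zfp688 (chr7:127418966-127422067), a short KRAB protein with 2 finger patterns, had 6.26, 8.98, 6.00 and 6.79 CPM in LPS and 32.2, 52.3, 26.6 and 32.4 in LPS+ET. Its rise was 5.08-fold (log2 2.34 ± 0.24, edgeR adjusted p = 1.9e-05). Zfp947 (chr17:22144358-22166189) had 4.10, 2.78, 3.40 and 3.81 CPM in LPS and 17.9, 12.1, 18.6 and 14.6 in LPS+ET, a 4.49-fold rise (log2 2.17 ± 0.29, edgeR adjusted p = 0.00015). In each of the 3 the lowest LPS+ET gradient was above the highest LPS gradient. The KRAB members Zfp456 (log2 1.77), Zfp777 (1.26), Zfp958 (1.23), Zfp429 (1.17), Zfp667 (1.05) and Zfp287 (1.04) also rose, as did Zfp219 (1.61), Zfp64 (1.05) and Zfp770 (0.95), which have no KRAB box. Of these, Zfp958, Zfp429, Zfp667, Zfp287 and Zfp770 lay outside the rule for named genes and are named after their values were seen, to account for all 14.

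**Figure D1:**
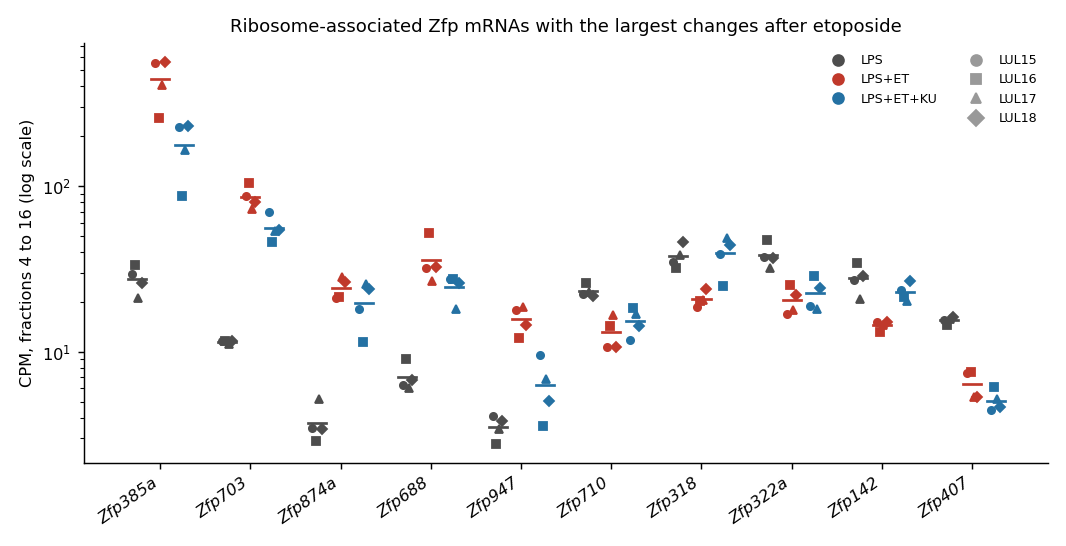
CPM summed over fractions 4 to 16 (log axis) of the 5 members with the largest rise and the 5 with the largest fall between LPS and LPS+ET. Each point is 1 gradient, its shape the library pool and its colour the treatment, and the line is the mean of 4. The LPS and LPS+ET points do not overlap in any of the 10 genes.

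The 5 largest falls were in members without a KRAB box. Zfp407, a many-fingered nuclear protein, had 15.5, 14.5, 15.9 and 16.2 CPM in LPS and 7.49, 7.51, 5.35 and 5.36 in LPS+ET, a 2.42-fold fall (log2 -1.27 ± 0.19, edgeR adjusted p = 0.00029). Zfp142 (chr1:74565126-74588245), with 37 finger patterns, had 27, 34.3, 20.8 and 28.7 CPM in LPS and 15.2, 13.1, 14.4 and 15.0 in LPS+ET (log2 -0.94 ± 0.17, edgeR adjusted p = 0.0017). Neither gene's groups overlapped, and both kept the call whichever of the 8 gradients was left out. Zfp322a (log2 -0.91 ± 0.20), Zfp318 (-0.85 ± 0.21) and Zfp710 (-0.83 ± 0.20) also fell, as did Zfp593 and Zfp592 (both log2 -0.72). These 5 falls were less secure. Zfp318 and Zfp593 lost the call when any 1 of the 8 gradients was left out, and Zfp322a, Zfp592 and Zfp710 lost it in 6 of the 8 cases, as Zfp64 among the risers did in 7.

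The members with a KRAB box had a median log2 fold change of 0.43, and 83.9% of them were above 0, against 51.6% of all genes. Of the 62, 9 were called higher and none lower, and 24 had an unadjusted p under 0.05, which is 38.7%, near the 34.4% of all genes. The members without it had a median of 0.03, 5 called higher and 7 lower. When pools were blocked, 19 KRAB members were called, all 19 higher, where 26.7% of all genes passed in either direction. The share of all genes called higher in that setting is not given here. The counts of the 62 KRAB members summed to 1028, 947, 1118 and 1105 CPM in LPS and 1406, 1376, 1694 and 1577 in LPS+ET, ranges that did not overlap. The 87 others summed to 3199 ± 184 CPM (SD, n = 4) in LPS and 3590 ± 338 in LPS+ET, ranges that did. No test was run of this split, which was drawn from protein sequence alone. In 51 of 149 members no LPS+ET gradient fell within the range of LPS, 37 of them higher and 14 lower, against 27.5% of all genes. Among KRAB members 22 were higher and 1 lower in this way. In bulk cultures, a change in the share of a cell type and a change in RNA per cell cannot be told apart.

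**Figure D2:**
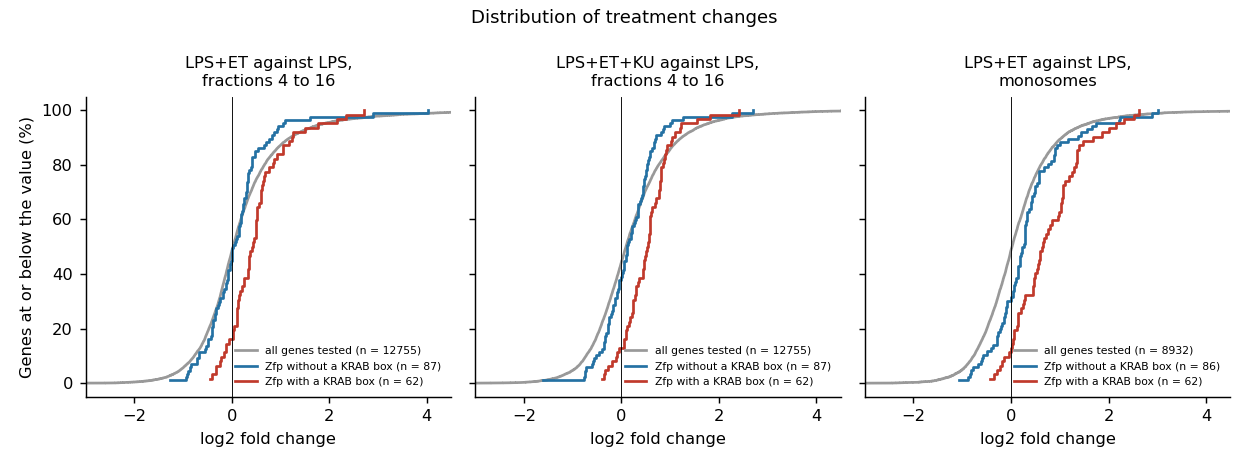
Cumulative share (%) of genes at or below each log2 fold change, for all genes tested (grey), Zfp members without a KRAB box (blue) and with one (red), for LPS+ET against LPS and LPS+ET+KU against LPS over fractions 4 to 16, and LPS+ET against LPS in monosomes. The red curve lies to the right of the blue and grey ones over most of its course, with medians of 0.43, 0.53 and 0.64.

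The choice of members by total counts bears on these medians, since a gene low in LPS could pass the minimum through the treated groups. In the LPS gradients 14 members had fewer than 400 counts, among them Zfp688, Zfp874a, Zfp429 and Zfp947, and in LPS+ET 21 had fewer, among them Zfp407 and Zfp608. Without those 14, the other 135 members had a median log2 fold change of 0.14, with 10 called higher and 7 lower, and the 50 KRAB members left had a median of 0.34, with 5 higher and none lower. The Zfp genes under the minimum were set apart by the same total. Of the 135 of them that were tested, 9 rose and 2 fell after etoposide, and their median was 0.29. Over all genes tested, 7.88% were called higher and 4.81% lower. The 10 higher and 7 lower of the 135 members left lay near these shares.

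Members with assigned roles were read by role. Of 9 members that act on RNA, splicing or the ribosome, Zfp385a rose and Zfp318 and Zfp593 fell. Zfp318, which keeps transcription running through the immunoglobulin locus so that mature B cells make IgD, had 34.7, 31.9, 38.2 and 45.9 CPM in LPS, 18.6, 20.3, 20.6 and 23.9 in LPS+ET, and 38.8, 24.9, 48.8 and 44.2 in LPS+ET+KU. Its LPS+ET gradients lay below those of both other groups. Zfp593, whose yeast relative exports the large ribosomal subunit from the nucleus, had a mean of 37.8 ± 5.63 CPM (SD, n = 4) in LPS and 23 ± 2.93 in LPS+ET. The ribosome quality control ligase Zfp598, the subunit maturation factor Zfp622, the splicing proteins Zfp326 and Zfp830, and the RNA-binding proteins Zfp106 and Zfp346 did not pass, with log2 fold changes between -0.18 and 0.48.

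Of 10 sequence-specific regulators and chromatin partners, Zfp703 and Zfp64 rose and Zfp592 fell. Zfp592, a partner of the chromatin reader ZMYND8, had 67.8, 71.3, 59.0 and 63.9 CPM in LPS and 40, 46.5, 34.8 and 38.1 in LPS+ET (log2 -0.72 ± 0.16, edgeR adjusted p = 0.0053). Zfp281, a GC-box binding factor of stem cells, had log2 0.86 ± 0.29 (edgeR adjusted p = 0.05) with groups that did not overlap. Zfp131, Zfp143, Zfp148, Zfp292, Zfp384 and Zfp410 did not pass, with values from -0.67 to 0.33. Zfp410, known to act on the single target Chd4, had 25.2, 30.7, 21.1 and 28.9 CPM in LPS and 34.2, 33.5, 31.8 and 33.8 in LPS+ET. Its groups did not overlap, at log2 0.33 ± 0.16 (edgeR adjusted p = 0.16). With the pool as a block, Zfp281 and Zfp131 passed, Zfp281 higher and Zfp131 lower.

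None of the 3 members linked to ubiquitin, SUMO or the spindle passed in counts over all fractions. Zfp207 (BuGZ), which loads the checkpoint protein BUB3 on kinetochores, had 689, 559, 593 and 512 CPM in LPS and 600, 274, 474 and 440 in LPS+ET, overlapping groups (log2 -0.40 ± 0.28). The SUMO ligase Zfp451 had log2 0.65 ± 0.18 and the ubiquitin ligase Zfp91 -0.49 ± 0.15, both without overlap between groups, and both passed when pools were blocked.

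The 4 KRAB members with known silencing targets, Zfp445 (imprinted loci) and Zfp708, Zfp809 and Zfp932 (retroelements), did not pass. Zfp809, which silences proviruses, had 59.2, 54.3, 139 and 139 CPM in LPS and 68.9, 127, 314 and 233 in LPS+ET. The LUL17 and LUL18 gradients were the higher pair in every treatment, and within each pool LPS+ET was above LPS. The log2 fold change was 0.93 ± 0.54 (edgeR adjusted p = 0.25) without the pool as a block, and Zfp809 passed with it. Zfp445 had log2 0.34 ± 0.24, Zfp708 0.33 ± 0.24 and Zfp932 -0.12 ± 0.18.

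By position, 24.2% of members lay on chromosome 7, which holds 8.03% of the protein-coding genes in the table. Members with starts within 1 Mb of the previous one formed 8 runs of 4 or more, which held 46 members, 33 of them with a KRAB box. A member rose after etoposide in 5 of the 8 runs and none fell in any. The risers were 7 of the 46 members in runs, where 7.88% of all genes were called higher and 4.81% lower. Whether risers gather in runs was not tested. The run on chromosome 13 (chr13:67069399-67553137) held 8 KRAB genes, Zfp708, Zfp595, Zfp456, Zfp429, Zfp874a, Zfp874b, Zfp87 and Zfp748. Log2 fold changes were above 0 in 7 of them, with a median of 0.49, and Zfp456, Zfp429 and Zfp874a were called. The run of 7 KRAB genes on chromosome 17 (chr17:21008940-22867133) had a median of 0.10, with Zfp947 called. In the run of 7 genes on chromosome 7 (chr7:127233060-127885995) that holds Zfp688, which was called, 3 were above 0 and the median was -0.08. Genes of 1 run share ancestry, so the runs hold fewer independent cases than members. They were drawn after results were known.

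The second comparison asked whether ATM inhibition altered these levels. Between LPS+ET+KU and LPS+ET, no member passed in edgeR's test over fractions 4 to 16, where 0.455% of all genes did. An unadjusted p under 0.05 was reached by 27 members (18.1%, against 15.9% of all genes), DESeq2 called 6, and with pools blocked 8 passed (6.36% of all genes). The 8 were Zfp523, Zfp775, Zfp72, Zfp513 and Zfp318, higher with the inhibitor, and Zfp947, Zfp385a and Zfp961, lower, and all 8 went 1 way in 4 of 4 pools. Zfp775, Zfp72 and Zfp961 are named after their values were seen.

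Zfp385a had 227, 87, 165 and 232 CPM in LPS+ET+KU, below every LPS+ET gradient and above every LPS gradient (log2 -1.33 ± 0.32 against LPS+ET, edgeR adjusted p = 0.045). Zfp947 had 9.56, 3.54, 6.88 and 5.08 CPM, also below every LPS+ET gradient (log2 -1.35 ± 0.28, edgeR adjusted p = 0.027), and its range overlapped that in LPS. Zfp318 had log2 0.91 ± 0.21 (edgeR adjusted p = 0.038). For Zfp874a, 18.2, 11.4, 25.5 and 24.1 CPM were measured with the inhibitor, overlapping LPS+ET, and the log2 difference was -0.29 ± 0.25 (95% interval -0.77 to 0.19). Of the 14 members that rose after etoposide, 13 had a log2 value below 0 in this comparison. Both comparisons use the LPS+ET gradients, so a high LPS+ET value enters both.

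Against LPS, the LPS+ET+KU gradients had 15 members higher and 2 lower (Zfp407 and Zfp592), 17 in all, where 10.7% of all genes were called and 6.25% called higher. The count was 9 without LPS LUL15 or LPS LUL18, 10 without LPS LUL16, and 11 without LPS LUL17 or LPS+ET+KU LUL15. The median was 0.30 for members and 0.09 for all genes, and without the filter on low counts 0.27 and 0.23. With the pool as a block 51 members passed (44 higher) and 28.1% of all genes. The KRAB members had a median of 0.53 and 10 called higher, none lower, and the others a median of 0.12 with 5 higher and 2 lower. Zfp703 rose 4.85-fold, Zfp385a 6.47-fold, Zfp874a 5.34-fold, Zfp688 3.51-fold and Zfp219 2.40-fold. In 49 members the groups did not overlap (41 higher and 8 lower), against 26.4% of all genes. The same LPS gradients serve as controls here as for etoposide alone. Without the 14 members low in LPS the median was 0.24, with 9 higher and 2 lower. Among the 135 Zfp genes under the minimum, 11 rose and 1 fell, with a median of 0.43.

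The change after etoposide was then followed in each fraction class, since an mRNA can rise among monosomes without rising among polysomes. In monosomes 20 members rose and 1 fell of 148 tested (9.52% of all genes called), with a median of 0.35 against 0.02 for all genes. The count was 13 without LPS LUL15. In light polysomes 14 rose and 2 fell (10.6% of all genes), with a median of 0.28 against 0.01, and 10 were called without LPS LUL16, LPS+ET LUL15 or LPS+ET LUL18. In heavy polysomes 10 rose and 2 fell (9.69% of all genes), with a median of 0.15 against 0.01. Without the filter on low counts the medians were 0.24 against 0.00 in monosomes and 0.22 against 0.11 in light polysomes, and in heavy polysomes the members' median, 0.05, was under that of all genes, 0.06. Without the LPS+ET LUL16 gradient the heavy polysome count was 19. With the pool as a block the counts were 46 in monosomes, 42 in light and 28 in heavy polysomes, where 24.6%, 25% and 20.6% of all genes passed.

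KRAB members had medians of 0.64 in monosomes, 0.51 in light and 0.38 in heavy polysomes, with 11, 8 and 7 called, all higher. Other members had medians of 0.25, 0.13 and -0.01. The summed KRAB level in monosomes was 876 ± 123 CPM (SD, n = 4) in LPS, 1596 ± 289 after etoposide and 1411 ± 242 with the inhibitor. Zfp219, Zfp385a, Zfp688, Zfp703, Zfp874a, Zfp947 and Zfp958 rose in all 3 classes. A further 12 members passed in monosomes but not in heavy polysomes, and Zfp429 and Zfp777 passed in heavy polysomes but not in monosomes. These overlaps compare calls, and no share over all genes was counted for them. The tests covered 8932 genes in monosomes and 11368 in heavy polysomes. The difference itself is tested below.

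The KRAB protein Zfp456 had 4.75, 4.31, 10.8 and 7.28 CPM of monosomes in LPS and 34.3, 14.8, 36.1 and 47.0 in LPS+ET, without overlap (log2 2.33 ± 0.47, edgeR adjusted p = 0.0034), and the call was lost in 5 of the 8 cases with 1 gradient left out. In heavy polysomes Zfp456 had log2 1.86 ± 0.45 (edgeR adjusted p = 0.0097), where the LPS+ET LUL16 gradient, at 5.46 CPM, lay below every LPS gradient, and the call was lost in 7 of 8 cases. The KRAB protein Zfp963 had 29.7, 35.5, 19.7 and 39.2 CPM of light polysomes in LPS and 89.9, 149, 49.1 and 81.0 in LPS+ET, without overlap (log2 1.57 ± 0.34, edgeR adjusted p = 0.0048), and lost the call in 6 cases. Zfp692, which has no KRAB box, had 5.98, 3.45, 2.69 and 5.48 CPM of light polysomes in LPS and 13.5, 13.3, 10.0 and 12.7 in LPS+ET (log2 1.48 ± 0.28, edgeR adjusted p = 0.0021). Its groups did not overlap, and the call was lost in 1 case, without LPS LUL16. Zfp777 had log2 1.45 ± 0.21 in heavy polysomes (edgeR adjusted p = 0.00023) and kept the call in all 8 cases.

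**Figure D3:**
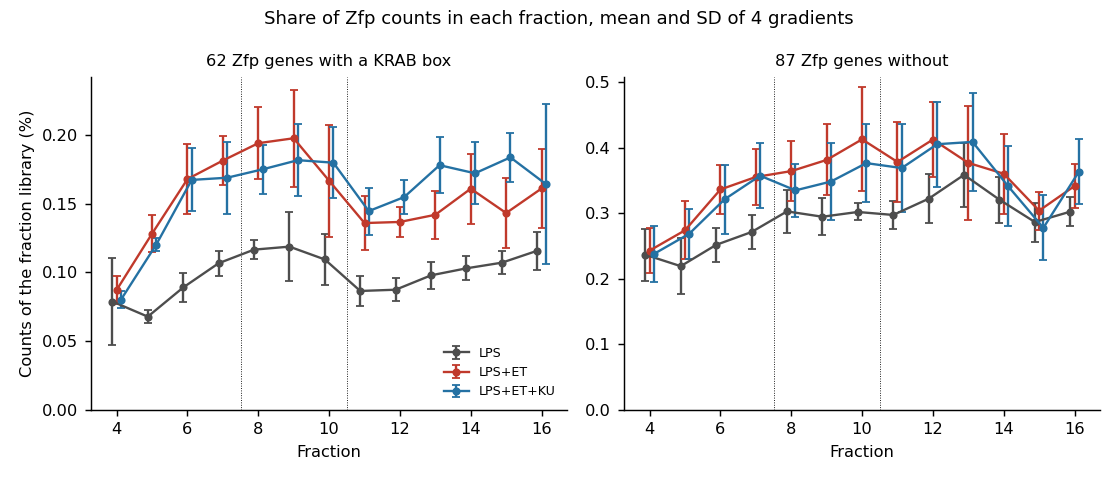
Share (%) of each fraction library's counts taken by the 62 KRAB members (left) and the 87 other members (right) in fractions 4 to 16, as the mean of 4 gradients with SD bars, for LPS (grey), LPS+ET (red) and LPS+ET+KU (blue). Dotted lines part monosomes, light and heavy polysomes. In each of fractions 4 to 16 the KRAB means of both etoposide groups lie above the LPS mean, in fraction 4 by less than the LPS SD.

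In LPS+ET+KU against LPS+ET, no member passed in monosomes or light polysomes, where 0.213% and 0.292% of all genes did, and 27 and 26 members had an unadjusted p under 0.05 (18.2% and 17.4%, against 13.5% and 15.3% of all genes). DESeq2 called 3 and 1. With the pool as a block, 14 passed in monosomes (12 of them lower, 7 of these with a KRAB box) and 7 in light polysomes, where 5.62% and 5.35% of all genes did. In heavy polysomes 1 member passed, Zfp523, against 0.572% of all genes, and 3 with the block against 3.27%. Zfp523, a relative of Zfp143, had 44.2, 33.9, 27.9 and 30.0 CPM of heavy polysomes in LPS+ET and 84.3, 95.6, 67.5 and 73.9 in LPS+ET+KU (log2 1.24 ± 0.21, edgeR adjusted p = 0.0079). The groups did not overlap, and the call was lost in 7 of the 8 cases with 1 gradient left out, all but LPS+ET LUL16.

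The next comparison placed the mRNAs along the gradient. In LPS, Zfp mRNAs lay lighter than most mRNAs. Of 149 members, 67 had less in heavy polysomes than in monosomes relative to the bulk of genes, and 13 had more. This made 80 called, where 59.4% of all genes were called and 29.9% called lower, and the median log2 heavy-to-monosome ratio was -0.50 against 0.02 for all genes. In LPS+ET 54 of 148 were lower and 3 higher (40.3% of all genes called), with a median of -0.51 against 0.17. In LPS+ET+KU 62 were lower and 14 higher (50.2% of all genes called), with a median of -0.47 against 0.02. The direction holds relative to the bulk. With each fraction weighted equally, all genes moved to medians of 0.77, 0.78 and 0.74 and the members to 0.33, 0.18 and 0.41. The members remained below all genes by 0.44, 0.60 and 0.32. In that setting 22 of 31, 24 of 37 and 51 of 70 members called were higher. The share and direction of calls over all genes in it are not given here. These counts are therefore not read as particular to the members.

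KRAB members had median log2 ratios of -0.71, -0.77 and -0.51 in LPS, LPS+ET and LPS+ET+KU, and other members -0.27, -0.43 and -0.32. In LPS 32 KRAB members were lower and 1 was higher. In 43 members the ratio was lower in all 3 treatments, and in Zfp282 and Zfp367 it was higher in all 3, where 15.6% of all genes were called lower and 16.7% higher in all 3. The 71 Zfp genes under the minimum that could be tested had a median of -1.03 in LPS, with 40 lower and none higher. The TRIM28 list gave the opposite sign, with 12 of 19 tested genes higher and 2 lower in LPS, where 29.5% of all genes were called higher, and a median of 0.91 against 0.02 for all genes.

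**Figure D4:**
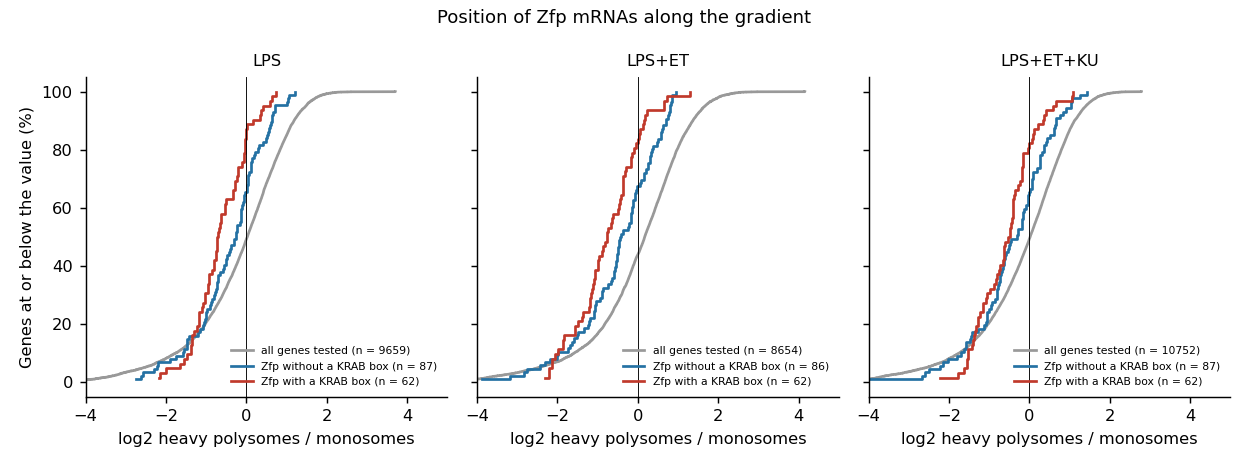
Cumulative share (%) of genes at or below each log2 ratio of heavy polysomes to monosomes in LPS, LPS+ET and LPS+ET+KU, scaled to the bulk of genes. All genes tested are grey, Zfp members without a KRAB box blue and with one red. The red median lies below the blue one and both below the grey one in each panel. With each fraction weighted equally all medians shift up and the members' medians are above 0.

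The lowest ratios in LPS among members called were those of Zfp329 (log2 -2.74 ± 0.20), Zfp513 (-2.62 ± 0.17), Zfp420 (-2.57 ± 0.27), Zfp280d (-2.29 ± 0.12) and Zfp692 (-2.21 ± 0.20), none with a KRAB box. Heavy polysomes held 34.2, 32.8, 29.5 and 32.1% of Zfp329 counts in the 4 LPS gradients, and 38.1, 29.4, 41.2 and 38% of Zfp280d counts. The highest were Zfp407 (1.20 ± 0.25), Zfp367 (1.06 ± 0.13), Zfp395 (1.03 ± 0.22), Zfp292 (1.02 ± 0.18) and the KRAB protein Zfp282 (0.74 ± 0.13). For Zfp407 the heavy share was 79.5, 68.2, 87.9 and 87.8%, above every gradient of the light group. Annotated proteins of the heavy group were not all long: that of Zfp367 has 340 residues and that of Zfp407 has 2246. The most counted site of Zfp367 lay in an intron, 5946 bases from the nearest annotated end, and that of Zfp280d also lay in an intron. Whether the counted mRNAs of these genes encode the whole protein was not tested. The 4 KRAB silencers lay light, at -2.18 for Zfp708, -2.14 for Zfp932, -0.80 for Zfp445 and -0.79 for Zfp809.

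Across members, the median heavy share of deposited counts was 56.2 ± 4.27% (SD, n = 4) in LPS, 52.5 ± 17.9% after etoposide and 48.5 ± 8.83% with the inhibitor, and that of protein-coding genes was 62.1, 59.8 and 54.6%. The LPS+ET LUL16 gradient had a median of 26% where the others of its group had 57.6 to 65.1%. With every fraction scaled to CPM the medians were 47.1, 45.0 and 48.5% for members, below 53.1, 52.9 and 53.4% for protein-coding genes.

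Whether etoposide moved a mRNA along the gradient was tested as the change of its heavy-to-monosome ratio between treatments. Of 149 members 7 passed, 6 toward monosomes and 1 toward heavy polysomes, where 2.51% of all 11463 genes passed. With the pool as a block 13 passed (11 toward monosomes) and 6.19% of all genes. The count was 15 without the LPS+ET LUL16 gradient, which had few heavy polysome counts, 3 without LPS LUL17 or LPS+ET LUL18, and 4 without LPS LUL16, LPS LUL18 or LPS+ET LUL17. With every fraction weighted equally 2 passed. Between LPS+ET+KU and LPS+ET no member passed, where 0.0262% of all genes did, and 30 members had an unadjusted p under 0.05 (20.1%, against 10.4% of all genes).

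Zfp597, a KRAB protein, had 45.1, 22.2, 26 and 26.4 CPM of monosomes in LPS and 134, 74.2, 116 and 115 in LPS+ET, whereas its heavy polysome values were 43.4, 26.9, 34.8 and 27 in LPS and 48.2, 19.1, 39.6 and 32 in LPS+ET. The monosome groups did not overlap and the heavy polysome groups did, and the ratio fell by 1.67 ± 0.25 on the log2 scale (edgeR adjusted p = 0.00022). Zfp281 had 21.8, 19.2, 17.3 and 24.1 CPM of monosomes in LPS and 117, 49.1, 115 and 106 in LPS+ET, against 25.6, 23.3, 41.9 and 34 and then 50.8, 43.1, 38.2 and 41.4 of heavy polysomes. Its ratio fell by 1.48 ± 0.29 (edgeR adjusted p = 0.0023).

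Zfp608, a large protein with 1 finger pattern, had 8.54, 4.65, 7.22 and 8.64 CPM of monosomes in LPS and 13.0, 15.4, 8.21 and 15.7 in LPS+ET, and 12.3, 10.7, 17.9 and 16.1 and then 11.2, 3.28, 6.82 and 4.71 of heavy polysomes. Its ratio fell by 1.77 ± 0.40 (edgeR adjusted p = 0.0071), and the call was lost in 5 of the cases with 1 gradient left out. Zfp146 (log2 -1.61) and the KRAB members Zfp933 (-1.56) and Zfp943 (-1.40) also moved toward monosomes, and are named after their values were seen. Zfp385a moved the other way, by 1.29 ± 0.30 (edgeR adjusted p = 0.0079). It had 181, 144, 159 and 185 CPM of monosomes in LPS+ET and 585, 229, 477 and 687 of heavy polysomes, from 19.9 to 28.2 and from 20.1 to 35.7 in LPS.

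**Figure D5:**
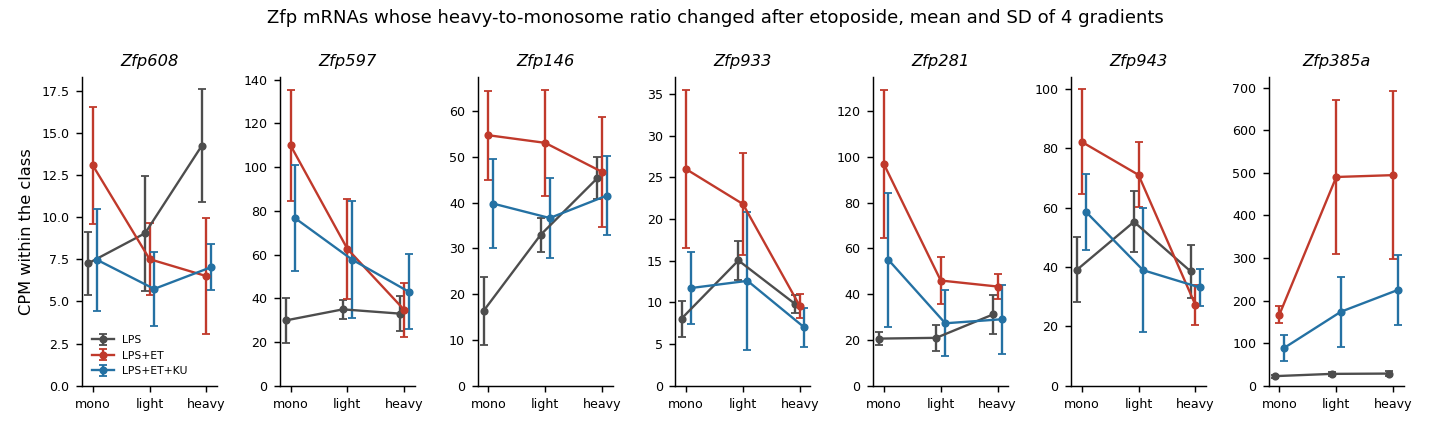
CPM within monosomes, light and heavy polysomes for the 7 members whose heavy-to-monosome ratio changed between LPS and LPS+ET, as the mean of 4 gradients with SD bars, for LPS (grey), LPS+ET (red) and LPS+ET+KU (blue). In 6 genes the LPS+ET mean exceeds the LPS mean more in monosomes than in heavy polysomes, and in Zfp385a the difference grows toward heavy polysomes.

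The pathway through which KRAB proteins silence was read from a list of its genes. Of 22 genes of the TRIM28 list 20 were tested, and after etoposide none rose and 1 fell, where 7.88% of all genes were called higher and 4.81% lower. The median log2 fold change was -0.41, against 0.03 for all genes. With the inhibitor added, none rose and 2 fell against LPS, where 6.25% of all genes were called higher and 4.42% lower, with a median of -0.49 against 0.09. When pools were blocked, 1 of the 20 rose (the deacetylase Hdac2) and 4 fell after etoposide, where 26.7% of all genes passed in either direction. With the inhibitor none rose and 7 fell against LPS, where 28.1% of all genes passed. Trim28 itself had 918, 1287, 960 and 1358 CPM in LPS and 944, 1925, 618 and 1076 in LPS+ET, overlapping groups (log2 0.01 ± 0.31). Setdb1 had log2 0.05 ± 0.17.

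The p53 half-site motif was searched by name on both strands in RefSeq promoters (GRCm38.p6, from 250 bases before to 50 after the start), with chromosome 18 left out. Counted by gene, it was found in a promoter of 12 of 125 members (9.6%) and of 2 of 13 members that rose after etoposide. Of all genes with a promoter in the set, 9.55% had it. A match is a letter match in this window.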

How the data were processed

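The authors sequenced 3′ ends of mRNA from each gradient fraction, removed PCR duplicates by random bases, trimmed A-tracts and aligned reads to GRCm38 (mm10). They deposited counts per gene, which were used as raw counts. Of the library columns, 79 matched 1 sample and 78 matched a treatment and fraction. Library totals ran from 14724 to 4170688 counts, so members were read from sums over fractions.

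Counts were summed per gradient over fractions 4 to 16 and over each class. Members and lists were chosen with earlier results of these data known. Treatments were compared with edgeR 4.0.16 (R 4.3.3, limma 3.58.1; TMM scaling, filterByExpr, quasi-likelihood F-test, two-sided, Benjamini-Hochberg over all genes tested) on 12 gradients without a block, as the study models treatment. Heavy polysomes and monosomes were compared with the gradient as a block, and changes of their ratio by the interaction. CPM use TMM-scaled totals. The scripts were checked on simulated counts.

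Gradients of the same pool deviated together (correlation of deviations 0.272 to 0.783, over 0.1 in 12 of 12 pairs, against -0.604 to 0.273 for different pools), so the pools pair the gradients and values with the pool as a block are given where they change a count.

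Genes were named if they stood in a role list, were among the 5 largest rises or falls in a comparison over fractions 4 to 16, had 1 of the 5 highest or lowest heavy-to-monosome ratios in LPS, were among the 2 largest changes in a class or ratio comparison, were among the 2 lowest members or the 2 genes just under the minimum, or were the 2 most abundant; 1 gene just under the minimum is not reported here. A KRAB box was called where at least 17 of 36 residues equalled the most common residues of 37 seed members, a limit set after the scores were seen (lowest inside 17, highest outside 13). Alternatives were another scaling, no filter, DESeq2 1.42.0, equal weight per fraction (limma on log2(CPM + 0.5)), the 8 gradients compared alone, an adjusted p under 0.05, and leaving out each gradient. A fraction 17 library of 777 counts, none in members, was left out.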

Additional observations from a re-analysis of the deposited data

Results flagged for a closer look

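In groups of 4 gradients, 9 of 153 checked held a gradient far from the other 3 (by Dixon's 95% limit on its gap to the nearest over the range), which is 5.88%, and chance gives about 1 in 20. In LPS+ET+KU, Zfp219 had 15.7 CPM in LUL17 (others 21.5 to 22.7), Zfp395 had 75.2 CPM in LUL16 (others 3.97 to 13.7), Zfp410 had 46.3 CPM in LUL16 (others 35.5 to 36.2) and Zfp598 had 35.1 CPM in LUL17 (others 19.9 to 22.1). Zfp597 was high in LUL15 of both groups, with 41.6 CPM in LPS (others 29.1 to 30.7) and 87.8 CPM in LPS+ET+KU (others 46.2 to 50.2). Zfp622 was high in LUL16, with 184.7 CPM in LPS+ET (others 124.7 to 133.7) and 176.7 CPM in LPS+ET+KU (others 161.0 to 161.4). Zfp367 had 200.3 CPM in LPS LUL15 (others 136.1 to 140.0).

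The heavy-to-monosome ratio changed differently in LPS+ET and LPS, by the interaction test, in 7 members. The log2 changes were -1.77 for Zfp608, -1.67 for Zfp597, -1.61 for Zfp146, -1.56 for Zfp933, -1.48 for Zfp281 and -1.40 for Zfp943, toward monosomes, and 1.29 for Zfp385a, toward heavy polysomes.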

How the results depend on the processing

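Counts of members called moved by over 1.5 times as follows, and the cause was not tested where the setting's construction does not give it. At an adjusted p under 0.05, LPS+ET against LPS gave 39 members over all fractions, 44 in monosomes, 36 in light and 30 in heavy polysomes, LPS+ET+KU against LPS gave 45, LPS+ET+KU against LPS+ET gave 5, 3, 2 and 3, and the change of ratio gave 18. With the pool as a replicate block, the same comparisons gave 41, 46, 42 and 28, then 51, then 8, 14, 7 and 3, and 13, and every member called without the block was among those called with it. DESeq2 gave 23 for LPS+ET against LPS in heavy polysomes, 30 for LPS+ET+KU against LPS, 6, 3, 1 and 3 for LPS+ET+KU against LPS+ET, and 11 for the change of ratio. With each fraction weighted equally, 13 were called over all fractions after etoposide (all higher, against 14 of 21), 0 in heavy polysomes with the inhibitor, 2 for the change of ratio, and 31 and 37 along the gradient in LPS and LPS+ET. The 8 gradients compared alone gave 0 in heavy polysomes with the inhibitor. Without the gradient as a block, 50 were called along the gradient in LPS and 40 in LPS+ET+KU. The median heavy share in LPS was 47.1% with every fraction scaled to CPM.

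Leaving out each gradient in turn gave 12 to 21 members for LPS+ET against LPS, 13 to 20 in monosomes, 10 to 16 in light and 9 to 19 in heavy polysomes, and 9 to 17 for LPS+ET+KU against LPS. LPS+ET+KU against LPS+ET gave 0 to 1 over all fractions, in monosomes and in heavy polysomes and 0 in light polysomes. Along the gradient 70 to 74, 39 to 78 and 59 to 79 were called in LPS, LPS+ET and LPS+ET+KU, and for changes of ratio 3 to 15 and 0 to 1. The median heavy shares ran from 54.4 to 57.8%, 48.3 to 61.4% and 44.7 to 51.6%.

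Of named results that passed, 13 of 39 no longer passed with equal weights, 5 without the filter on low counts and 3 with 8 gradients. Of those that had not passed after etoposide, Zfp131, Zfp281, Zfp451, Zfp772, Zfp809 and Zfp91 passed with the replicate block. Among those that had not passed, log2 fold changes after etoposide changed sign with equal weights in Zfp106 (-0.0045), Zfp622 (0.0087) and Zfp932 (0.1238), and in Zfp106 without LPS+ET LUL17 (-0.0282; up to 0.2985 over the gradients left out). Small library totals limit values of single fractions.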
